A study of Mus musculus with 18 samples.

Results

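Type 1 conventional dendritic cells (cDC1), which carry the chemokine receptor XCR1, were grown from wild-type (WT) mouse bone marrow and compared with and without lipopolysaccharide (LPS), a component of the outer membrane of Gram-negative bacteria. The comparison took all 5 libraries labelled WT LPS and all 4 labelled WT control, which are 9 of the 18 libraries of the series. The other 9 come from KO cells, 5 with LPS and 4 without, and are used below for a single comparison of the responses. Marrow cells grew, per the design text, in GM-CSF plus Flt3L, cytokines that drive dendritic cell growth, and XCR1+ cells were then sorted or pulled out of the culture with antibody-coated beads. All groups therefore share both cytokines. The labels give neither the dose nor the duration of LPS, nor the purification of each library, nor whether LPS came before or after it, nor the age or strain of the mice, nor the deleted gene. Nothing states that the replicates came from different cultures or mice, so p-values measure only the spread between these libraries, which may be technical.

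Toll-like receptor 4 (TLR4), helped by CD14 and MD-2, binds LPS and signals through 2 adaptor routes. The MyD88 route activates NF-kB and MAP kinases, which switch on inflammatory cytokine genes, and the TRIF route activates IRF3, which switches on interferon beta. Secreted interferon then acts through its receptor and IRF9 on a large set of antiviral genes. In dendritic cells this programme is known as maturation: the cell raises co-stimulatory molecules and the lymph node homing receptor CCR7, and presents antigen to T cells.

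Promoter sequences of 5 genes among those with the highest fold changes are shown first. They were picked because they hold motifs by which these routes are known to act. Other genes of similar rank do not: the promoters of Cxcl9 and Acod1, which rank 2 and 3 by fold change, held no match to any of the 4 motifs searched. The printed stretches are RefSeq sequences of build GRCm38.p6, 5′ to 3′ on the strand of the gene, and each ends at the base before the annotated start. Capitals mark matches on either strand to the interferon-stimulated response element (ISRE, searched as GAAA, any 2 bases and GAAA again) or to the NF-kB consensus. A match is a description of the letters and not a measured site.
Cxcl10, chr5:92348890-92349122, minus strand: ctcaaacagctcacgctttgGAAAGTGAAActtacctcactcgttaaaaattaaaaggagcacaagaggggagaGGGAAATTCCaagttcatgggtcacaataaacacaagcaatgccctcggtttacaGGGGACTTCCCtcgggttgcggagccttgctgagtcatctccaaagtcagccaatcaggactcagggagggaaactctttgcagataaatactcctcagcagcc
Cxcl2, chr5:90903782-90903898, plus strand: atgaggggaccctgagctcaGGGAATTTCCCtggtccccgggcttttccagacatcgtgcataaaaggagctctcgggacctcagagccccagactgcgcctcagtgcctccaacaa
Rsad2, chr12:26456453-26456592, minus strand: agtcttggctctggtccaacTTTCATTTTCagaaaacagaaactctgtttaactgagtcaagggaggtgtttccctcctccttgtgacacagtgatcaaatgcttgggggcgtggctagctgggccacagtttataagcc
Ifit1, chr19:34640765-34640888, plus strand: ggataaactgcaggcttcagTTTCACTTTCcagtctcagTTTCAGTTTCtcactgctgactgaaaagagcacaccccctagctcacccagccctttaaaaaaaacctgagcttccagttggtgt
Tgtp1, chr11:48992247-48992343, minus strand: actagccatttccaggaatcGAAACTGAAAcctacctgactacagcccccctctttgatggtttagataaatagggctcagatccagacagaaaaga
The Cxcl10 stretch, ahead of the gene for a chemokine that draws T cells, held 1 ISRE match and 3 NF-kB matches, of which 2 overlap. The Cxcl2 stretch, ahead of a neutrophil chemokine gene, held 2 NF-kB matches that overlap and no ISRE match. Rsad2 (viperin, an antiviral enzyme) and Tgtp1 (an immunity-related GTPase) held 1 ISRE match each, and Ifit1, which binds foreign RNA, held 2.

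Levels are in CPM, read counts relative to the TMM-scaled total of the library, and lists of values run in replicate order. For Cxcl10 (gene ID 15945) the control libraries held 0, 0.137, 0.0555 and 0.331 CPM, and the LPS libraries 1149, 1462, 1001, 1035 and 1131 CPM. Ifit1 (15957) stood at 0.245, 0.137, 0.139 and 0.248 CPM without LPS and at 208, 491, 187, 199 and 296 CPM with it. Tgtp1 (21822) went from 0.708, 0.302, 0.694 and 0.937 CPM to 662, 1238, 608, 633 and 817 CPM. In all 3 genes the lowest LPS library lay far above the highest control library. The log2 fold changes were 13.06 ± 0.26 SE, 10.45 ± 0.4 SE and 10.22 ± 0.29 SE, with edgeR adjusted p values for a change beyond 2-fold of 6.11e-19, 1.10e-14 and 1.39e-16. Cxcl2 had no count in any control library and 12.0, 18.7, 6.14, 8.60 and 12.1 CPM with LPS, which is at least 549.5-fold higher against a floor of 3 counts over the control group. Tgtp1 and Tgtp2 are near-identical copies, and so are Bcl2a1a, Bcl2a1b and Bcl2a1d, Hspa1a and Hspa1b, and some Oas, Gbp and H2 genes. How reads shared by such copies were counted is not stated, so their single values are uncertain.

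Library totals lay between 25.9 M and 27.1 M estimated counts, and 11989 of the 16614 genes in the table passed the filter on low counts. WT LPS replicate 2 stood apart: of the genes that rose, 79.2% were higher in it than in the other 4 LPS libraries, against 2.77% to 8.15% for each of those. Of the genes that fell, 55.1% were lowest in it. WT control replicate 4 and WT LPS replicate 5 carried neutrophil transcripts such as S100a8, S100a9, Camp and Ngp, which summed over 8 marker genes to 27.4 and 82.4 CPM, while the other 7 WT libraries held 0.361 to 1.02 CPM. The labels put both in the same run of library numbers, and control replicate 4 was also the highest control for several genes that LPS raised. The part of these transcripts in any result was not tested. Without LPS replicate 2 the fit called 1909 genes as higher and 2259 as lower beyond 2-fold, and without the other pair 1954 and 2246, against 1987 and 2321 with all libraries.

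Transcripts of genes listed as cDC1 markers were present in both groups. Of 13 marker genes, all 13 were above the filter, and their summed level was 9387 to 9727 CPM in control libraries and 7463 to 9062 CPM with LPS. The list holds genes such as Flt3 and Itgax beside Xcr1 and Clec9a. All 12 monocyte and macrophage markers passed the filter too, so passing it does not identify the cell. Markers of other cells were at or near 0 for mast cells and basophils (at most 0.143 CPM summed, Ms4a2 and Fcer1a at 0) and low for T, B and NK cells. The last list summed to 0.250 to 0.523 CPM without LPS and 2.05 to 3.94 CPM with it, and 2 of its 8 genes, among them Ms4a1, were tested and rose. Of 12 monocyte and macrophage markers, 3 rose (Fcgr1, Ly6c2 and Adgre1) and 2 fell (among them Ccr2). The call for Adgre1 was lost under total-count and upper-quartile scaling (adjusted p = 1 and 0.199), in limma-voom (0.0684) and with the title number as a block (0.0564). The sum was 2261 to 2470 CPM without LPS and 2009 to 3022 CPM with it. Plasmacytoid DC markers summed to 97.7 to 103 CPM and to 483 to 707 CPM, where Bst2 and Tcf4 rose, Siglech fell and Klk1 was at 0. Bst2 alone held 30.1 to 36.1 CPM without LPS and 328 to 480 CPM with it, much of the higher sum. Erythroid and platelet markers summed to 2.42 to 5.43 CPM without LPS and 4.18 to 19.7 CPM with it. The highest library of each group was of the pair that carried neutrophil transcripts. The cDC2 markers summed to 203 to 240 CPM and 175 to 259 CPM. The part of other cells in the results below was not tested, and in bulk RNA fewer cells of a type and less RNA per cell cannot be told apart.

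Most tested genes differed between the groups. At any fold, 85.5% of the tested genes were called (edgeR, adjusted p under 0.05), 40.7% higher and 44.7% lower, and in 77.9% the 2 groups did not overlap. Many genes named in this report were picked among those without overlap, so their distance between groups follows in part from that choice. With so high a background, "rose" and "fell" are used here only for genes called as changed by more than 2-fold, which 1987 genes (16.6%) did upward and 2321 (19.4%) downward. Of these, 553 rose and 245 fell by more than 10-fold, and 117 rose and 5 fell by more than 100-fold. Genes that rose had a median of 14.1 CPM without LPS and 79.3 CPM with it, and genes that fell had medians of 12.5 and 3.08 CPM. Among the 1561 genes above 100 CPM in control cells, 17.0% rose and 10.6% fell, and among the 2709 genes between 1 and 10 CPM, 14.8% rose and 30.5% fell. The count of each list below is to be read beside the 16.6% and 19.4% of all genes.

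**Figure D1:**
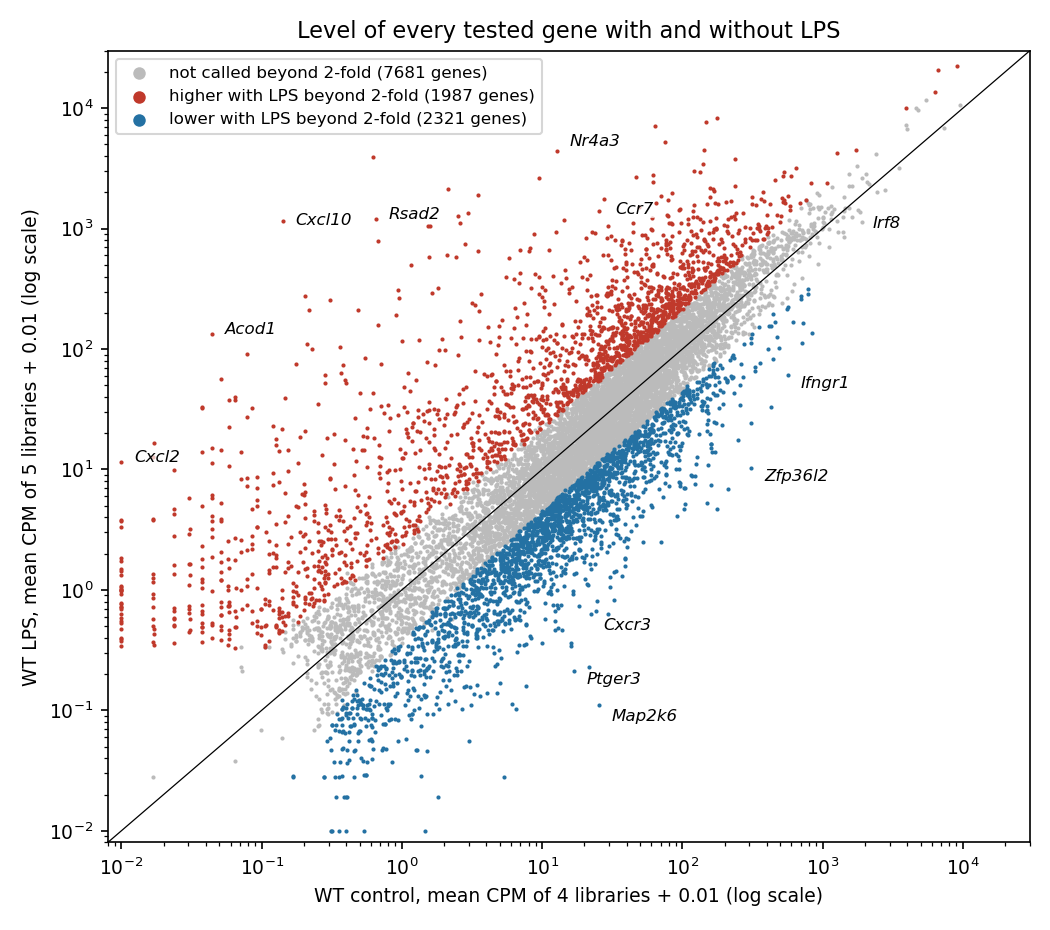
Mean CPM of each of the 11989 tested genes in WT control libraries (x, n = 4) against WT LPS libraries (y, n = 5), both on log axes with 0.01 added. Red points are the 1987 genes higher and blue points the 2321 genes lower with LPS beyond 2-fold, grey points are the rest, and the line marks equal levels; the red cloud reaches farther from the line than the blue.

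The split depends on the scaling. TMM assumes that most genes do not change, and its factors averaged 1.36 in control and 0.814 in LPS libraries. Scaling by total counts moved the median of all genes by -0.74 (log2), and gave 1151 genes higher and 4606 lower beyond 2-fold, while upper-quartile scaling moved it by -0.27. No gene that rose or fell changed sign under either. This follows from the 2-fold threshold, which is larger than both shifts, and is no separate support. The directions below are relative to the typical gene. Within the 4 runs of library numbers that held both WT groups, 1985 of the 1987 genes were higher and all 2321 were lower in every run. This follows largely from the calls. The WT groups did not overlap in 1976 of the genes that rose and 2313 of those that fell, which fixes the direction within runs.

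**Figure D2:**
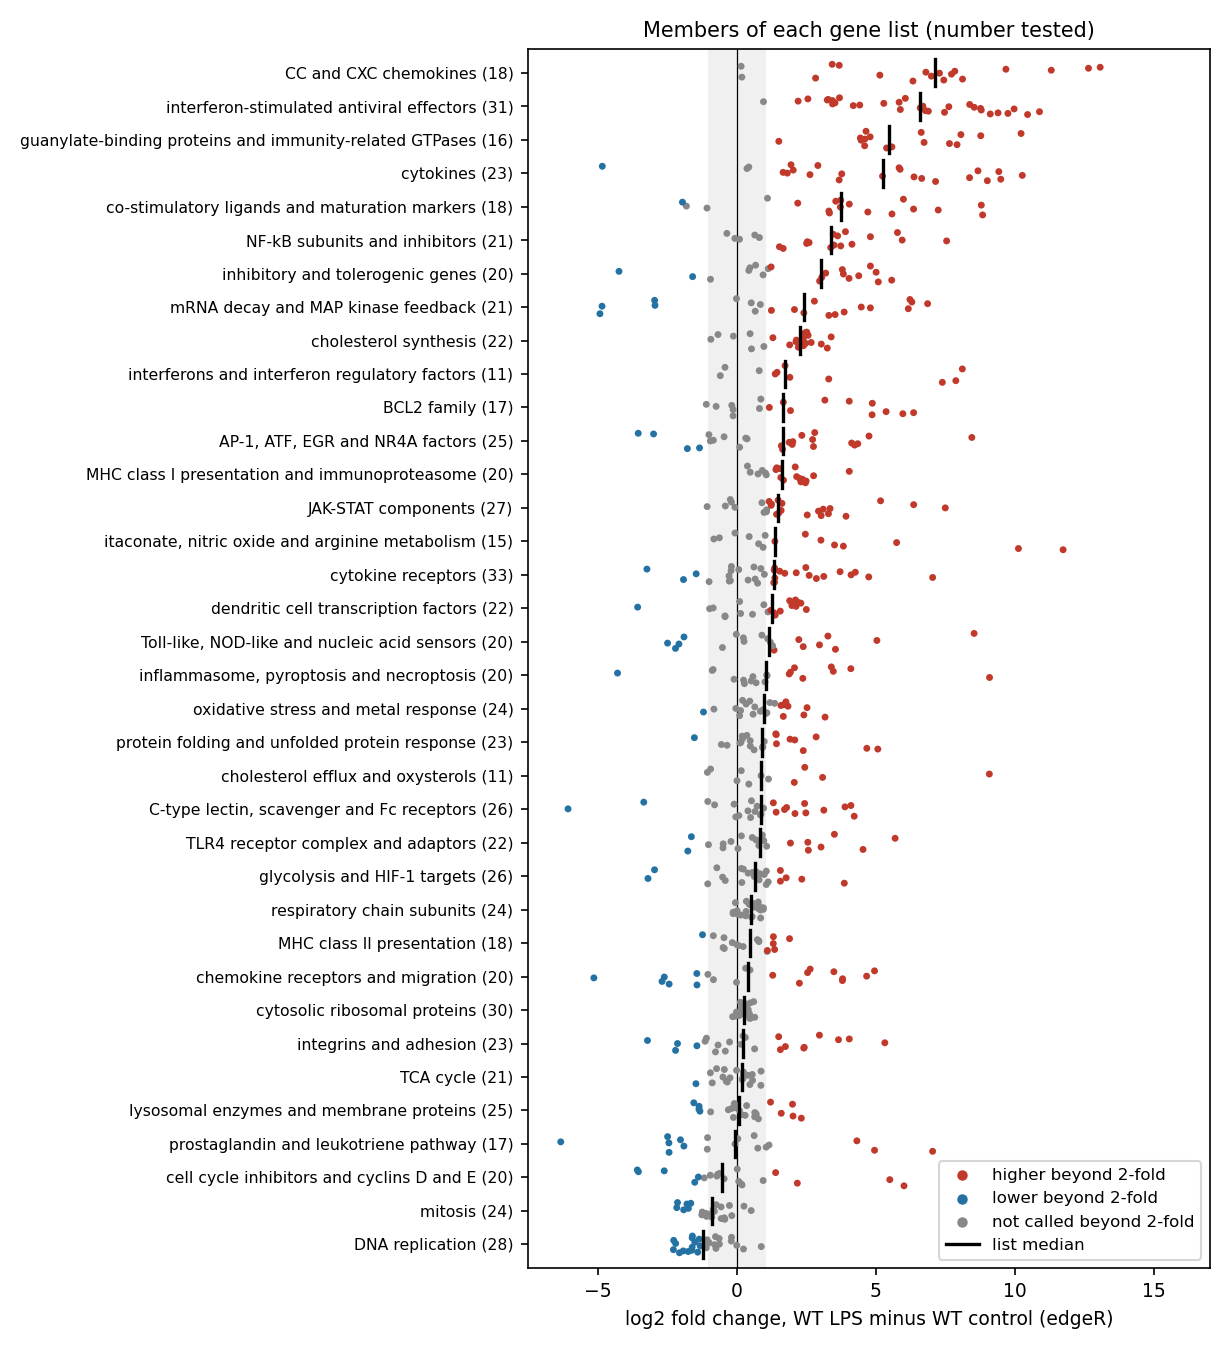
Log2 fold change (WT LPS minus WT control, edgeR) of every tested member of 36 gene lists, ordered by list median (black bar), with the number tested in parentheses. Red and blue points were called beyond 2-fold and grey points were not; chemokines and antiviral genes lie at the top with medians of 7.14 and 6.59, and DNA replication genes at the bottom with -1.23.

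The gene of the LPS receptor fell, while several of its helpers and adaptors rose. Tlr4 was at 7.92, 7.92, 7.92 and 9.75 CPM without LPS and 1.84, 2.96, 2.64, 1.98 and 2.99 CPM with it (-1.76 ± 0.13 SE, adjusted p = 4.20e-06). Cd14, which hands LPS to the receptor, went from 1.72, 1.57, 1.11 and 1.79 CPM to 27.8, 63.6, 21.8, 25.3 and 42.2 CPM, with the groups far apart and LPS replicate 2 the highest. Myd88, the adaptor of the first route, was tight in both groups, at 61.2, 62.4, 59.2 and 60.9 CPM and 513, 515, 471, 488 and 497 CPM. Over the list of receptor, adaptor and kinase genes, 7 of 22 tested rose and 2 fell (Tlr4 and Tab1). These are 31.8% and 9.09%, beside 16.6% and 19.4% of all genes. The median log2 fold change was 0.85 beside -0.06 for all genes. Also up were Ikbke (5.69), a kinase of the interferon arm, Map3k8 (3.51), Ly96, which encodes MD-2 (2.57), and the inhibitory kinase gene Irak3 (2.55). Ticam1, which encodes TRIF, was at 1.07 and was not called beyond 2-fold.

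NF-kB genes rose together with the genes that restrain them. Of 21 tested, 16 rose and none fell, with a median of 3.38, and total-count scaling left 14 up and 1 down. Nfkbiz, an atypical inhibitor-family protein that co-activates inflammatory genes, went from 2.70, 3.82, 3.61 and 3.75 CPM to 663, 873, 469.6, 568 and 662 CPM. Nfkbia, the classical inhibitor, went from 29.5, 31.8, 29.4 and 33.0 CPM to 557, 690.2, 440.5, 469 and 569 CPM, and Tnfaip3, which encodes the deubiquitinase A20, from 15.2, 22.2, 17.9 and 19.8 CPM to 474, 662, 447, 488 and 549 CPM. No LPS library of these genes came near a control library. Among the subunits, Relb (3.74), Rel (3.50) and Nfkb2 (3.38) had the higher log2 fold changes and Rela the lowest (1.53). Of the kinase complex, Chuk (0.81), Ikbkb (0.10) and Ikbkg (-0.07) were not called beyond 2-fold.

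Immediate early and MAP kinase feedback genes rose more often than all genes, and fell about as often. Of 25 genes of the AP-1, ATF, EGR and NR4A families with related factors, 14 rose and 4 fell. These are 56% and 16%, beside 16.6% and 19.4% of all genes. Nr4a3, an orphan nuclear receptor, went from 9.67, 12.8, 12.8 and 15.8 CPM to 4094, 5551, 3711, 4081 and 4832 CPM (8.45 ± 0.18 SE), whereas its relatives Nr4a1 (0.37) and Nr4a2 (0.32) were not called beyond 2-fold. Batf (4.35), Atf3 (4.24) and Junb (2.76) rose, and Jun was at 0.10. Klf4 fell from 34.6, 34, 33.6 and 31.5 CPM to 2.91, 3.58, 2.77, 1.98 and 3.14 CPM, and Klf2 (-2.99) also fell. Of 21 genes of mRNA decay and MAP kinase feedback, 13 rose and 4 fell (61.9% and 19.0%). The ZFP36 family of RNA-destabilizing proteins split: Zfp36 (3.31) and Zfp36l1 (3.53) rose, and Zfp36l2 fell from 303, 313, 301 and 327 CPM to 11.8, 9.81, 10.3, 9.41 and 10.0 CPM (-4.92 ± 0.074 SE). The dual-specificity phosphatases split as well, with Dusp2 (6.17), Dusp4 (4.8) and Dusp5 (4.47) up, and Dusp6 down from 32.6, 28.3, 30.9 and 30.6 CPM to 1.88, 0.511, 0.955, 0.945 and 0.950 CPM. The pseudokinase gene Trib1 reached 271, 323, 280.0, 265 and 288 CPM from 3.29, 4.59, 3.17 and 3.50 CPM.

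Interferon genes were scarce, while genes known as their targets were among the most raised. Ifnb1 had no count in the control libraries and 0.358, 2.09, 0.636, 0.315 and 0.475 CPM with LPS, at least 36.2-fold higher, and Ifnl2 was at least 51.1-fold higher. Of 11 genes for interferons and their regulatory factors, 8 rose and none fell, and under total-count scaling 5 rose and 2 fell. Ifnb1 and Ifnl2, both without a control count, passed the filter only through other groups and could not be called lower. Irf7, which amplifies interferon production, went from 8.28, 8.33, 8.64 and 12.8 CPM to 2423, 3272, 2416, 2371 and 2633 CPM. Irf1 (3.30) and Irf9 (1.73) rose too, and Irf3, the factor activated by TRIF, was at -0.59 and was not called beyond 2-fold.

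Of 31 antiviral effectors, 30 rose, with a median of 6.59, and the count was 30 under each scaling. The exception was Trim21, an antibody receptor in the cytosol, at 27.4 ± 0.487 CPM and 53.4 ± 6.42 CPM (SD, n = 4 and n = 5; 0.96). Oasl1 went from 2.23, 1.84, 2.00 and 2.45 CPM to 2239, 2827, 1635, 1814 and 2180.5 CPM, and Isg15, a ubiquitin-like modifier, from 1.31, 1.59, 1.06 and 2.31 CPM to 972, 1545, 871, 876 and 1012 CPM. Every LPS library lay far above every control library in both. All 16 tested guanylate-binding proteins and immunity-related GTPases, which attack vacuoles that hold microbes, rose, with a median of 5.48. Gbp2 went from 8.71, 6.62, 8.05 and 14.6 CPM to 289, 686, 283, 282 and 442 CPM and Gbp5 from 2.40, 1.48, 2.17 and 3.61 CPM to 464, 947, 415, 452 and 643 CPM. LPS replicate 2 was the highest LPS library and control replicate 4 the highest control library of both. Gbp8 had the smallest change (1.51) and lost its call without LPS replicate 2 (adjusted p = 0.103), without control replicate 1 (0.0572), in DESeq2 (0.0529) and limma-voom (0.159), with WT libraries alone (0.0505), with the title number as a block (0.0608) and under total-count and upper-quartile scaling (1 and 0.136).

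Of 23 cytokine genes tested, 20 rose and 1 fell, with a median of 5.24. Among the 23, 2 had no control count and 2 had 1 to 3. These passed the filter only through other groups, could hardly be called lower and add little to the count. Il6 stood at 0.0272, 0.0550, 0.0278 and 0.0826 CPM without LPS, 7 counts in all, and at 33.7, 63.1, 18.6, 31.3 and 42.9 CPM with it (9.49 ± 0.52 SE). Il12b, which encodes the p40 chain common to IL-12 and IL-23, went from 12.6, 13.3, 13.4 and 18.3 CPM to 1256, 1857, 621, 958 and 1257 CPM. Il1b went from 2.07, 1.35, 1.78 and 4.77 CPM to 1216, 2203, 697, 941 and 1355 CPM. Replicate 2 was the highest and replicate 3 the lowest LPS library in all 3 genes, and none met the controls. The partner subunits were scarcer: Il12a had no control count and was at least 72.4-fold higher, and Il23a had 2 control counts (49.5-fold, counting interval 13.2 to 417). Il27 (0.0413 ± 0.0276 CPM to 56.3 ± 15.1 CPM) and its partner Ebi3 (22.6 ± 2.50 CPM to 140.3 ± 37.8 CPM), which form IL-27, both rose. The inhibitory cytokine gene Il10 had 1 count in the control group and 0.851, 2.09, 0.818, 0.765 and 1.24 CPM with LPS (164-fold, counting interval 28.9 to 6538). Il15, which sustains NK and memory T cells, went from 4.41, 6.35, 5.17 and 5.43 CPM to 62.8, 106, 57.7, 57.7 and 81.4 CPM. Il16, the precursor of a CD4 ligand, fell from 152, 150.3, 148 and 148 CPM to 6.94, 3.47, 5.82, 4.95 and 4.89 CPM, with the groups tight and apart (-4.84 ± 0.12 SE).

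Of 18 chemokine genes tested, 16 rose, with a median of 7.14, or 6.90 with the 3 genes at 0 control counts set to their lower bounds. Those 3, and 2 more with 1 to 3 control counts, passed the filter only through other groups. They could hardly be called lower and add little to the count of 16. Ccl22, which draws regulatory T cells through CCR4, went from 66.3, 51.3, 54.7 and 83.2 CPM to 7752, 9551, 4899, 5886 and 7422 CPM. Ccl17, the other CCR4 ligand, went from 0.708, 0.357, 0.583 and 0.496 CPM to 97.3, 109.5, 59.4, 76.8 and 78.9 CPM. Ccl5, a T cell attractant, was already present without LPS, at 45.9, 44.1, 42.5 and 69.7 CPM, and reached 268, 702, 209.5, 231 and 389 CPM. Its log2 fold change was 2.83 ± 0.29 SE, the lowest of the 16. Ccl6 (0.18) and Cxcl14 (0.16) were not called beyond 2-fold. Cxcl1 had 3 control counts and a ratio of 275-fold, counting interval 93.5 to 1335, and Cxcl3 was at least 177-fold higher.

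Chemokine receptors and migration genes divided, with 9 of 20 up and 6 down (45% and 30%, beside 16.6% and 19.4% of all genes). The list median of 0.40 turned to -0.36 under total-count scaling. Ccr7, the lymph node homing receptor, went from 83.1, 61.9, 66.1 and 112 CPM to 1055, 1971, 601, 746 and 1229.9 CPM (3.80 ± 0.29 SE), and Fscn1, the actin bundler of mature dendritic cells, from 55.0 ± 12.7 CPM to 618 ± 344 CPM. Xcr1, the receptor used to purify the cells, rose from 173, 168, 179 and 181 CPM to 408, 388, 465, 431 and 449.7 CPM, and this call was lost under total-count scaling (1.29 became 0.55) and upper-quartile scaling (1.02). Several other receptors fell. Ccr2 went from 441, 421, 468 and 455 CPM to 72.3, 66.3, 104, 86.7 and 84.2 CPM, Cxcr4 from 21.5, 27.6, 22.1 and 22.2 CPM to 3.31, 5.26, 3.41, 3.06 and 4.23 CPM and Cxcr3, the receptor for Cxcl9 and Cxcl10, from 23.5, 22, 20.7 and 22.3 CPM to 1.12, 0.715, 0.500, 0.495 and 0.285 CPM. No library of one group reached the other in these 3 genes, as in 77.9% of all tested genes. Ccr1 (-1.43) fell too.

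**Figure D3:**
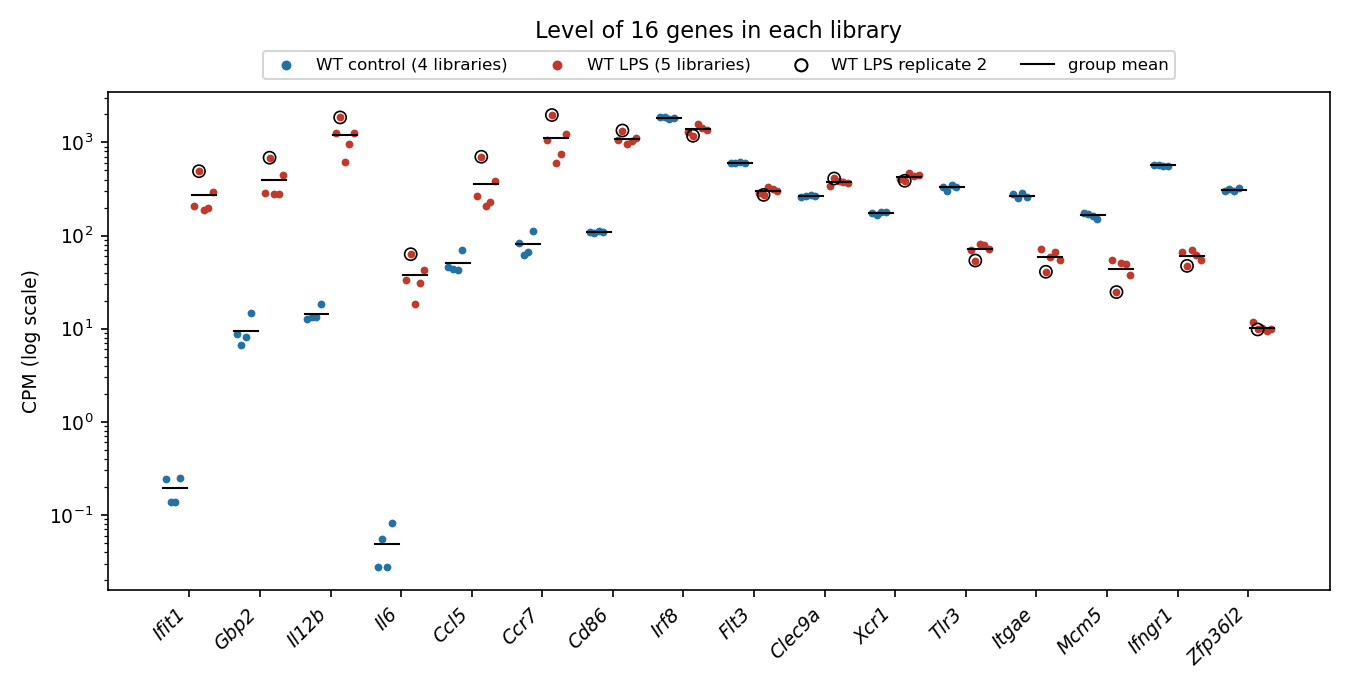
CPM on a log axis of 16 genes in each WT control (blue, n = 4) and WT LPS library (red, n = 5), with group means as bars and WT LPS replicate 2 ringed. Irf8 and Clec9a show small distances between groups and Ifit1 and Il6 large ones. Replicate 2 is the highest LPS library for the 7 genes at the left. It is the lowest for Irf8, Flt3, Xcr1, Tlr3, Itgae, Mcm5 and Ifngr1.

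Maturation markers rose, and so did genes that restrain T cells. Of 18 co-stimulatory and maturation genes, 14 rose and 1 fell, with a median of 3.73. Cd86, a ligand of CD28, went from 109.8, 107, 111 and 110.0 CPM to 1067, 1344, 957, 1030.2 and 1107 CPM, Cd80 from 2.12, 2.42, 3.22 and 2.73 CPM to 115, 154, 112, 116 and 129.8 CPM and Cd83 from 66.4, 73.0, 67.7 and 76.2 CPM to 1929, 2334, 1489, 1626 and 1888 CPM. The spread within each group was small beside these distances. Tnfsf15 (TL1A) had a log2 fold change of 8.79, Icosl of 3.31 and Tnfsf9 (4-1BB ligand) of 3.72. Cd48, a ligand of 2B4, fell (-1.95 ± 0.067 SE). Of 20 inhibitory and tolerogenic genes, 12 rose and 2 fell. Cd274, which encodes PD-L1, went from 10.3, 8.93, 11.4 and 17.1 CPM to 338, 704, 254, 303 and 432 CPM, and Lgals9 (galectin-9) from 8.93, 8.03, 7.94 and 10.7 CPM to 408, 506, 388, 387 and 423 CPM. Pdcd1lg2 (2.98), Ido1 (4.03) and Axl (3.79) also rose, while Vsir, which encodes VISTA, fell from 74.2 ± 5.68 CPM to 24.7 ± 7.86 CPM.

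Class I presentation genes rose more often than all genes, while the count for class II depended on the scaling. Of 20 class I and immunoproteasome genes 14 rose (70%, beside 16.6% of all genes) and none fell. The median was 1.63, and 9 rose under total-count scaling. H2-K1 went from 540.3, 556, 497 and 541 CPM to 3038, 3126, 2890.1, 2844 and 2864 CPM. Nlrc5, the transactivator of class I genes, went from 50.4, 61.8, 61.0 and 67.0 CPM to 832, 1167, 938, 966 and 1044 CPM. Of 18 class II genes, 5 rose and 1 fell (27.8% and 5.56%, beside 16.6% and 19.4% of all genes). Upper-quartile scaling left 1 up and 1 down. The median of 0.48 became -0.27 under total-count scaling, where none rose and 5 fell. Cd74, the invariant chain, was at 9029 ± 571 CPM and 22408 ± 1657 CPM, and H2-Ab1 at 6356 ± 444 CPM and 13611 ± 758 CPM. The call for H2-Ab1 was lost without LPS replicate 1 (adjusted p = 0.102) or any of control replicates 2, 3 and 4 (0.0528, 0.142 and 0.07). It was also lost under total-count and upper-quartile scaling (both 1), with no filter (0.202), with WT libraries alone (0.072), in limma-voom (0.0754) and without the pair that held neutrophil transcripts (0.0648). That for Cd74 was lost under total-count scaling (1) and upper-quartile scaling (0.235). Ciita, the class II transactivator, was at -0.16 and Marchf1, the ligase that removes class II from the surface, at -0.46. By TPM, which compares genes per length, Cd74 (19219 and 28759 without and with LPS), Cst3 (19059 and 24400.3) and Tmsb4x (25889.8 and 31192) were among the most abundant transcripts in LPS libraries.

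Genes of cDC1 identity split under TMM scaling, while their mean log2 level was lower with LPS. Of 13 markers, 1 rose (Xcr1) and 2 fell, with a median of -0.26. These are 7.69% and 15.4%, beside 16.6% and 19.4% of all genes. Under total-count scaling none rose and 6 fell. Upper-quartile scaling left none up and 3 down, with a median of -0.53. The mean log2 CPM of the list was 8.49 to 8.53 in control libraries and 7.99 to 8.18 in LPS libraries. Tlr3, the sensor of double-stranded RNA, fell from 331, 303, 345 and 335 CPM to 70.6, 53.9, 81.8, 78.6 and 71.6 CPM, and Itgae (CD103) from 282, 251, 285 and 259 CPM to 71.2, 40.9, 59.0, 66.8 and 54.6 CPM. Clec9a, the receptor for dead cells, was at 262, 266, 276 and 263 CPM and 343, 410.3, 383, 379 and 366 CPM, a change of 0.50 ± 0.059 SE that became -0.25 under total-count scaling. Irf8, the lineage factor, was at 1851 ± 35.0 CPM and 1379 ± 154 CPM (-0.42), Batf3 at 20.0 ± 1.62 CPM and 15.0 ± 3.02 CPM (-0.42) and Flt3 at 605 ± 7.34 CPM and 303 ± 24.3 CPM (-1.0). These 3 were lower at any fold (edgeR adjusted p = 2.69e-05, 8.10e-04 and 7.95e-13) and were not called beyond 2-fold.

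Of 22 genes for transcription factors of dendritic cells, 12 rose and 1 fell, with 6 up and 5 down under total-count scaling. Ikzf1 (2.50), Etv6 (2.20), Tcf4 (2.30) and Prdm1 (2.11) were among those up. The myeloid factor gene Cebpa fell from 21.7, 21.2, 17.6 and 19.5 CPM to 2.24, 1.58, 1.82, 1.26 and 1.52 CPM while Cebpb (2.13) and Cebpd (1.98) rose. Of 20 genes for innate sensors, 8 rose and 4 fell, 40% and 20%, beside 16.6% and 19.4% of all genes. The share that fell is thus near that of all genes. Tlr9, the sensor of unmethylated DNA, went from 72.9, 81.9, 77.4 and 79.8 CPM to 545, 720.5, 571, 572 and 652 CPM, and Tlr2 (3.55), Tlr7 (2.39) and Nod1 (5.04) rose too. With Tlr3 fell Tlr11 (-2.08) and Tlr12 (-2.49), the profilin sensors, and Mavs (-1.90), the adaptor of RNA helicases. Of 26 lectin, scavenger and Fc receptor genes, 11 rose and 2 fell (42.3% and 7.69%, beside the same shares of all genes). Fcgrt, the neonatal Fc receptor, fell from 127, 139, 118 and 129 CPM to 12.1, 10.6, 15.4, 13.1 and 11.7 CPM, and Cd209a from 6.78, 6.51, 6.22 and 6.67 CPM to 0.179, 0, 0.0455, 0.0450 and 0.190 CPM, while Ly75 (DEC-205) rose (3.13).

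More receptor genes for other cytokines rose than fell. Of 33 cytokine receptor genes, 17 rose and 3 fell (51.5% and 9.09%, beside 16.6% and 19.4% of all genes). Under total-count scaling 9 were up and 4 down. Ifngr1, the ligand-binding chain for interferon gamma, fell from 575, 578, 555 and 562 CPM to 66.6, 47.2, 70.8, 62.5 and 55.0 CPM (-3.23 ± 0.087 SE), while its partner Ifngr2 was at 0.87 and was not called beyond 2-fold. Il6ra (-1.92) and the decoy receptor gene Il1r2 (-1.46) fell as well. Il2ra, the high-affinity chain for IL-2, went from 0.463, 0.220, 0.305 and 0.578 CPM to 44.4, 102, 21.0, 34.7 and 58.8 CPM; LPS replicate 3 was the lowest and replicate 2 the highest. Il15ra (2.60), Il21r (4.11), Il4ra (3.13) and Il10ra (2.86) rose. Of 27 JAK-STAT genes, 18 rose and none fell, against 10 and 2 under total-count scaling. Stat2 had a log2 fold change of 3.03 ± 0.058 SE and Jak2 of 2.94 ± 0.12 SE, and the feedback gene Cish rose from 0.110 ± 0.0222 CPM to 9.42 ± 2.80 CPM.

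Survival and cell death genes rose on both sides. Of 17 BCL2 family genes, 10 rose and none fell, among them the protective Bcl2l1 (4.86), Mcl1 (1.93) and Bcl2a1d (5.37) and the lethal Bcl2l11 (4.87), Pmaip1 (4.04) and Bbc3 (1.67). Bcl2 itself was at -0.14 and was not called beyond 2-fold. Of 20 inflammasome, pyroptosis and necroptosis genes, 8 rose and 1 fell (40% and 5%, beside 16.6% and 19.4% of all genes). Casp4, which encodes the mouse caspase-11 that binds LPS in the cytosol, went from 0.136, 0.192, 0.167 and 0.303 CPM to 101, 155, 87.9, 97.0 and 113 CPM. Gsdmd, the pore protein it cleaves, rose (1.88), and its relative Gsdme fell from 7.38, 5.80, 7.47 and 6.61 CPM to 0.358, 0.102, 0.409, 0.495 and 0.333 CPM. Nlrp3 was at 0.69 and Pycard at -0.10, neither called beyond 2-fold.

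In the list of itaconate, nitric oxide and arginine metabolism, 8 of 15 rose and none fell. Acod1, which makes itaconate, went from 0, 0, 0.0555 and 0.0826 CPM to 117, 220.1, 88.3, 95.8 and 139.8 CPM. Nos2, the inducible nitric oxide synthase, had 1 control count and 9.50, 18.4, 12.5, 9.81 and 13.6 CPM with LPS (1834-fold, counting interval 329 to 72509.5). Of 26 glycolysis and HIF-1 genes, 5 rose and 2 fell, beside 16.6% and 19.4% of all genes, and the median of 0.66 became -0.08 under total-count scaling. Those up were Slc2a6 (3.86), Pfkp (2.34), Pfkfb3 (1.77), Hk3 (1.57) and Hif1a (1.57), and those down Egln3 (-2.96) and Pfkm (-3.19). Of 21 TCA cycle genes only Idh2 was called beyond 2-fold (-1.47), and of 24 respiratory chain subunits none was. The WT groups did not overlap in 18 of the 24, beside 77.9% of all genes. Both medians, 0.19 and 0.52, were below 0 under total-count scaling (-0.55 and -0.23).

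Most genes of cholesterol synthesis, the mevalonate pathway, rose. Of 22 cholesterol synthesis genes 16 rose and none fell, with a median of 2.29, and total-count scaling gave 14 up and 2 down. Hmgcs1 went from 190.3, 159.7, 179 and 155 CPM to 1690.2, 1487, 1679, 1729 and 1566 CPM, and Idi1 (3.04), Insig1 (2.51) and Sqle (2.13) followed. Dhcr7 (-0.68), a gene of the last steps, and the regulator Srebf2 (0.53, -0.21 under total-count scaling) were not called beyond 2-fold. Ch25h, which makes 25-hydroxycholesterol, had 2 control counts and averaged 9.92 ± 3.94 CPM with LPS (SD, n = 5). In this list LPS replicate 2 had the lowest mean log2 CPM of the LPS libraries, 7.13 against a highest value of 7.72, unlike in the inflammatory lists.

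More prostaglandin genes fell than rose. Of 17 genes, 3 rose and 6 fell (17.6% and 35.3%, beside 16.6% and 19.4% of all genes). The inducible synthases Ptgs2 (COX-2), from 0.0545, 0.137, 0.111 and 0.165 CPM to 10.3, 27.9, 11.0, 12.7 and 18.3 CPM, and Ptges, at 4.95, rose, while Ptgs1 (COX-1) fell (-2.43). Among receptors for prostaglandin E2, Ptger4 rose from 17.8, 16.7, 15.4 and 16.0 CPM to 327, 403, 265, 298 and 347 CPM, and Ptger2 fell from 25.9, 28.3, 25.5 and 27.2 CPM to 4.97, 5.57, 3.91, 5.18 and 4.99 CPM, with Ptger3 at -6.33. The leukotriene genes Alox5ap (-2.02) and Ltc4s (-2.49) and the thromboxane synthase gene Tbxas1 (-1.90) fell.

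Among cell division genes, those of DNA replication fell most often. Of 28 DNA replication genes, 14 fell (50%, beside 19.4% of all genes) and none rose. Their median was -1.23, and 23 fell under total-count scaling. Mcm7, a subunit of the replicative helicase, went from 156, 154, 149 and 142 CPM to 38.0, 17.2, 35.5, 33.6 and 30.2 CPM, and Mcm2 (-2.06), Mcm5 (-1.93), Cdc6 (-2.27) and Pold1 (-2.20) also fell. Of 24 mitosis genes, 6 fell and none rose, and 18 fell under total-count scaling. The 6 are 25% of the list, near the 19.4% of all genes that fell. Mki67, a marker of cycling cells, was at 510.4, 542, 637 and 531 CPM and 389, 289, 475, 486 and 417 CPM, with a change of -0.43 ± 0.12 SE that was not called beyond 2-fold. Among 20 regulators, Cdkn1a, which encodes the inhibitor p21, rose from 25, 26.4, 25.4 and 33.4 CPM to 1754, 2312, 1414, 1569.7 and 1825 CPM, and Ccnd2, a cyclin that promotes entry into the cycle, from 61.8, 54.6, 60.6 and 69.2 CPM to 2499.9, 3757, 2214, 2409.6 and 3041 CPM. E2f1 (-2.61), E2f2 (-3.58), Rbl2 (-3.54), Ccne2 (-1.38) and Cdkn2c (-1.51) fell. Thus 4 of the 20 rose and 5 fell, 20% and 25%, near the 16.6% and 19.4% of all genes.

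None of 30 ribosomal protein genes was called beyond 2-fold. Their median of 0.25 turned to -0.49 under total-count and -0.02 under upper-quartile scaling. Of 23 genes of protein folding, 9 rose and 1 fell (39.1% and 4.35%, beside 16.6% and 19.4% of all genes). Hspa1a (5.07), Hspa5 (2.39), Herpud1 (2.85) and Ddit3 (2.08) rose, and the sensor gene Eif2ak3 (PERK) fell (-1.53). Of 24 genes of oxidative stress and metals, 8 rose and 1 fell (33.3% and 4.17%, beside 16.6% and 19.4% of all genes). Nfe2l2 (3.17) and Prdx1 (2.53) were among those up. Cat, catalase, fell (-1.20, a call lost in DESeq2 with adjusted p = 0.112), while Hmox1 was at 0.10. Of 25 lysosomal genes 5 rose and 4 fell, shares close to the 16.6% and 19.4% of all genes, with Lamp2 (2.32) and Ctsc (2.02) up and Gusb (-1.33) and Tfeb (-1.54) down. Of 23 integrin and adhesion genes, 9 rose and 4 fell. These are 39.1% and 17.4%, and the share that fell is near the 19.4% of all genes. Itgb8 (5.32), which activates TGF-beta, Icam1 (4.04) and Itga4 (2.41) rose, and Itgb7 (-2.13), Itgb2 (-1.43) and Epcam (-3.21) fell with Itgae. The medians of both lists, 0.09 and 0.22, were below 0 under total-count scaling (-0.65 and -0.52).

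Among genes that reached 10 CPM in a group and did not overlap, genes with clone names aside, Map2k6, a MAP kinase kinase of the p38 route, had the lowest log2 fold change (-7.88), from 25.3 ± 1.67 CPM to 0.101 ± 0.0471 CPM. Next came Dpep3 (-6.63), a membrane dipeptidase, Ptger3, Abhd15 (-5.55), the transcription factor gene Tfap4 (-5.49) and Susd3 (-5.31). Abhd15 held 29.5, 29.4, 29.5 and 29.8 CPM in control libraries and 0.851, 0.358, 0.636, 0.675 and 0.570 CPM with LPS. Acss1, a mitochondrial acetyl-CoA synthetase, fell from 151, 202, 177 and 176 CPM to 5.69, 3.73, 5.27, 4.95 and 3.90 CPM. Mfng, a glycosyltransferase that modifies Notch, fell from 24, 27.5, 22.2 and 23.3 CPM to 1.08, 0.255, 1.00, 0.675 and 0.285 CPM, and the Notch ligand gene Dll4, with 1 control count, was at 11.7, 33.1, 8.64, 9.99 and 18.9 CPM with LPS. Lbh (-4.93) and Fam78a (-4.92) completed the lowest 12 with Cxcr3 and Zfp36l2. At the other end, Cd69, a membrane protein that retains cells in tissue, reached 91.4, 110.2, 80.1, 88.5 and 88.5 CPM from 0.0545, 0.0275, 0.0833 and 0.110 CPM, and Ifi206, of the interferon-inducible p200 family, reached 32.8 ± 10.8 CPM from 0.0274 ± 0.0222 CPM.

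ISRE, NF-kB and AP-1 matches were more frequent ahead of the genes that rose, and GAS matches only slightly so. Within 250 bases before the start, 3.56% of the 9641 tested genes with a RefSeq promoter held an ISRE match, 7.83% of those that rose and 15.1% of those that rose more than 10-fold, against 2.38% of those that fell. For the NF-kB consensus the shares were 10.6%, 14.2%, 16.8% and 10.8%, and for the AP-1 motif (TGANTCA) 5.5%, 8.02%, 11.5% and 4.65%. The interferon gamma motif GAS (TTCNNNGAA) was at 7.21%, 7.7%, 10.2% and 6.93%. Over all 27025 genes of the table of promoters, 3.46% held an ISRE match and 8.23% an NF-kB match. In the list of guanylate-binding proteins and GTPases, 9 of 10 genes with a promoter held an ISRE match and 6 a GAS match. In the NF-kB list 9 of 17 held an NF-kB match, 4 an AP-1 match, 4 a GAS match and none an ISRE. The antiviral effectors held an ISRE match in 9 of 25 and each of the other motifs in 6. The ribosomal proteins, of which none was called beyond 2-fold, held an ISRE match in 4 of 22 (18.2%). These shares are descriptions without a test.

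**Figure D4:**
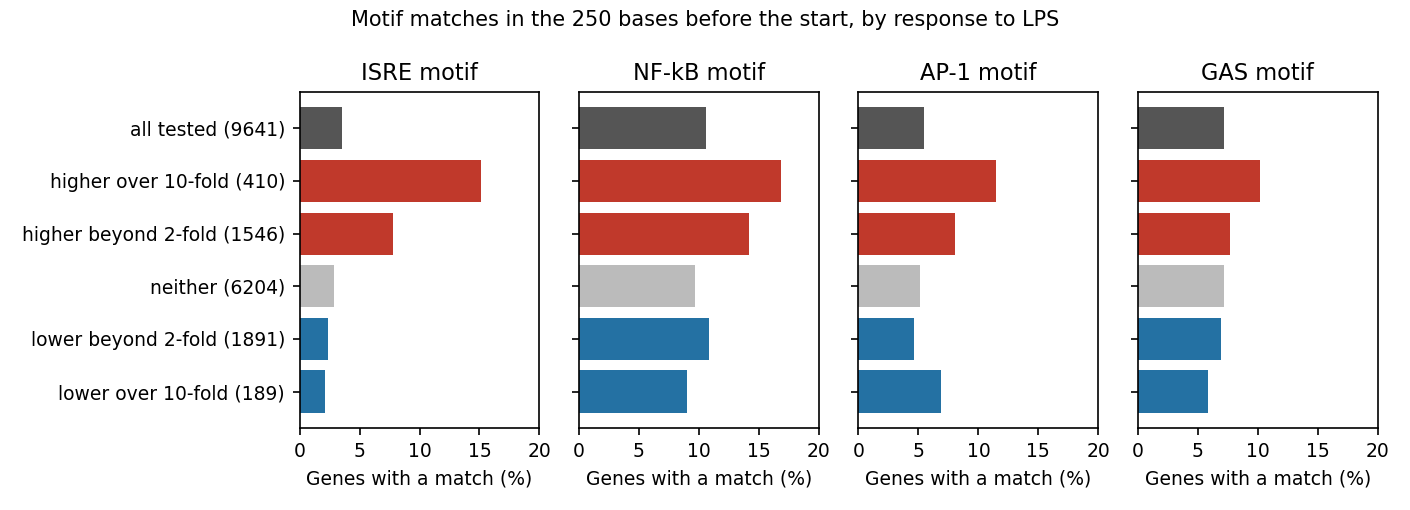
Share of genes (%) with at least 1 match, on either strand, to each of 4 motifs in the 250 bases before the RefSeq start, by response to LPS in WT cells, with the number of genes in parentheses. The ISRE share goes from 2.12% of the genes lower by over 10-fold to 15.1% of the genes higher by over 10-fold; bars have no error since each is a share of all genes in its class.

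The 5 LPS libraries differed in the levels of several lists. In mean log2 CPM over the 31 antiviral effectors, the LPS libraries spanned 8.60 to 9.28 and the control libraries 2.57 to 2.83. For the 18 chemokines the spans were 5.00 to 6.19 and -0.28 to 0.08, and for the 23 cytokines 3.74 to 4.71 and 0.06 to 0.40. LPS replicate 2 gave the upper end of all 3. Its run of library numbers held no control library, so a larger response cannot be told apart from that run. Its monocyte and macrophage markers also had the highest sum, 3022 CPM against 2009 to 2330 CPM in the other LPS libraries. The part of either was not tested. Mitosis genes spanned more than DNA replication genes (3.87 to 4.63), from 4.06 in replicate 2 to 5.32, against 5.86 to 6.06 in controls. Ribosomal protein genes spanned 9.79 to 9.96 with LPS, and replicate 2 was within that range at 9.85.

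**Figure D5:**
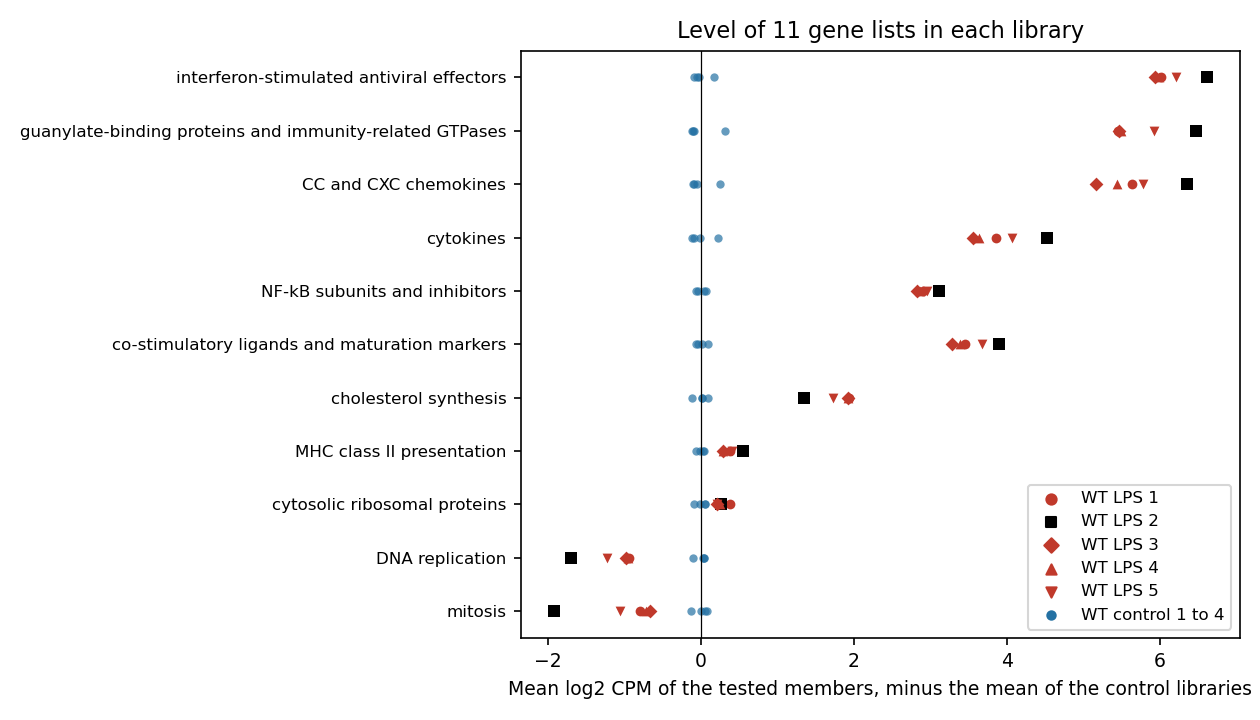
Mean log2 CPM of the tested members of 11 gene lists in each WT library, minus the mean of the 4 control libraries, so that 0 is the control level. WT LPS replicate 2 (black square) lies farthest from 0 in the inflammatory, class II, replication and mitosis lists and nearest to 0 among LPS libraries for cholesterol synthesis, and the control libraries (blue) stay near 0.

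The share of transcripts held by the most abundant genes was compared last within WT. The top 100 genes held 43.9 ± 0.78% of TPM in control and 44.4 ± 0.84% in LPS libraries (SD, n = 4 and n = 5; exact two-sided permutation test, p = 0.476; the smallest p this design allows is 0.00794). The top 10 genes held 3.37 and the top 1000 genes 6.40 percentage points more with LPS, each with an exact permutation p of 0.00794. Genes with at least 10 counts numbered 11612 ± 47 in control and 11239 ± 32.4 in LPS libraries.

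The response was then set against that of KO cells, with the difference of both responses as the tested quantity. It differed in 458 genes (3.82%, edgeR adjusted p under 0.05), 334 with the higher log2 change in WT (2.79%) and 124 with the lower (1.03%), and 2233 genes had an unadjusted p under 0.05. This count is unstable: it was 1501 without WT LPS replicate 2 and 208 without WT control replicate 3, it was 882 with the run of library numbers as a block, and 206 without both libraries that held neutrophil transcripts. Leaving out other single libraries gave 304 (WT control 4), 281 and 305 (KO control 3 and 4), and 287, 298 and 279 (KO LPS 1, 4 and 5). By size of the difference, Vwa1, Gpr146, Olfm1, Sema6b, Ptger2 and Adora3 came first, and in all 6 the log2 change was nearer to 0 in WT than in KO. Olfm1, an extracellular protein, held 134, 146, 128 and 141 CPM in WT control and 33.0, 35.3, 44.4, 35.0 and 37.5 CPM in WT LPS libraries, and 149.6, 159, 152 and 145 CPM and 9.01, 13.7, 12.5, 9.77 and 12.3 CPM in the KO libraries (-1.89 against -3.72, difference 1.83, adjusted p = 1.00e-07). For Gpr146, an orphan receptor, the changes were -1.44 and -3.49 (adjusted p of the difference 1.48e-07), and for Ptger2 -2.44 and -3.95 (1.06e-06). At the other end, Nes, an intermediate filament gene, rose less in WT (3.47 against 4.58, 0.011), and Slco4a1, a transporter gene, was at 0.03 in WT, a value whose sign turned under total-count (-0.70) and upper-quartile scaling (-0.24), and 1.12 in KO. Of the lists, the ribosomal proteins had 10 of 30 genes called and the antiviral effectors 8 of 31, beside 3.82% of all genes. Irf7 had a log2 change of 8.11 in WT and 6.91 in KO (0.00183), and Isg15 one of 9.39 and 8.11 (0.0198). Batf3 was at -0.42 in WT and -1.12 in KO (0.0119).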

How the data were processed

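RNA sequencing of 18 mouse bone marrow-derived dendritic cell libraries was deposited as 1 gene table; 4 WT control and 5 WT LPS libraries carry the comparison. Per the file headers, the authors deposited for each library an estimated count of reads, an FPKM and a TPM value per gene; FPKM was not used. The submitters' processing notes name HISAT, Bowtie2 and build GRCm39; the counting tool, annotation and versions were not given in the sources used here. Of the count values, 6.37% were not whole (tolerance 0.001), and all were rounded. A gene needed a count of about 10 in enough libraries (filterByExpr, edgeR 4.0.16, R 4.3.3), which kept 11989 of 16614. Genes passing only through the LPS group had to differ.

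Counts of all 18 libraries were fitted in 1 quasi-likelihood model (TMM scaling, a mean per group), with Benjamini-Hochberg adjusted p under 0.05 at any fold and, with glmTreat, beyond 2-fold. The interaction came from the same fit. CPM are TMM-scaled, and TPM, which the authors normalized per length, served for levels between genes. Floors and intervals cover counting error only: a gene with 0 control counts was set at 3 counts over the group. Alternatives were other scalings and filters, DESeq2 1.42.0, limma-voom 3.58.1, blocks, and leaving out libraries. On simulated data for this comparison (11600 genes), 94% of 100 genes at 1.5-fold were called at any fold and 100% of 100 genes at 4-fold beyond 2-fold. Of the unchanged genes, 10 were called at any fold and 0 beyond 2-fold. The changed genes were well counted, as many raised as lowered, with a fixed spread between libraries. In the real data 85.5% of genes were called and many had few counts, so these rates do not carry over to them.

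The 896 entries of 44 gene lists, and the members, were chosen with earlier results of these data known. Named genes were 15 fixed genes, the 12 highest and 12 lowest folds, the most abundant by TPM, up to 2 of each direction per list, and 6 of each direction in the interaction. Those of the highest and lowest folds and of the lists had to be without overlap between the WT groups. Other list members were named after their values were seen. Some of these genes are not reported here. Promoters are RefSeq sequences of GRCm38.p6, matched by gene ID. Images were drawn with matplotlib 3.10.9.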

Additional observations from a re-analysis of the deposited data

Results flagged for a closer look

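Each of the 194 genes picked by the naming rule was searched for a WT library far from the others of its group (Dixon's test at 95%, 4 or 5 libraries). Over 388 such groups 28 stood out, and chance alone gives about 1 in 20 groups. WT control replicate 4 gave 9 of the 28, WT LPS replicate 2 gave 8 and WT control replicate 1 gave 5.

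Il10 was highest in WT control replicate 1 at 0.0272 CPM, with the next library at 0, values that rest on 1 to 3 counts. The highest library of its group was WT control replicate 1 for Actb (6915 CPM, the next library 6568). Il27 was highest in WT control replicate 4 at 0.0826 CPM, with the next library at 0.0278, values that rest on 1 to 3 counts. Nos2 was highest in WT control replicate 4 at 0.0275 CPM, with the next library at 0, values that rest on 1 to 3 counts. The highest library of its group was WT control replicate 4 for Tlr4 (9.75 CPM, the next library 7.92), Irf7 (12.8 CPM, the next library 8.64) and Irgm2 (11.0 CPM, the next library 10.1). Also the highest library of its group was WT control replicate 4 for Ccl5 (69.7 CPM, the next library 45.9), Tapbpl (44.0 CPM, the next library 40.7) and Cdkn1a (33.4 CPM, the next library 26.4). Also the highest library of its group was WT control replicate 4 for Ctsc (89.1 CPM, the next library 86.0). Dll4 was highest in WT control replicate 3 at 0.0278 CPM, with the next library at 0, values that rest on 1 to 3 counts. The lowest library of its group was WT control replicate 1 for Il6ra (48.1 CPM, the next library 54.9), Tcf4 (27.5 CPM, the next library 30.9) and Ikzf1 (159.8 CPM, the next library 165). The highest library of its group was WT LPS replicate 2 for Il2rg (353 CPM, the next library 267), Fcgr1 (46.3 CPM, the next library 29.1) and Ctsc (425 CPM, the next library 344). Also the highest library of its group was WT LPS replicate 2 for Lamp2 (556 CPM, the next library 428) and Bst2 (479.9 CPM, the next library 346). The highest library of its group was WT control replicate 2 for Cxcr4 (27.6 CPM, the next library 22.2). The lowest library of its group was WT LPS replicate 5 for Ndufs1 (39.4 CPM, the next library 43.5). The lowest library of its group was WT LPS replicate 2 for Srebf2 (803 CPM, the next library 939), Pola2 (20.8 CPM, the next library 26) and Slco4a1 (4.19 CPM, the next library 8.84). The highest library of its group was WT LPS replicate 1 for Rps3 (1465 CPM, the next library 1326) and Rplp2 (685 CPM, the next library 603). The highest library of its group was WT LPS replicate 3 for Adora3 (5.50 CPM, the next library 3.51).

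Among the genes picked by that rule and reported here, 33 had a call for the difference between responses. In these the response to LPS differed between WT and KO cells in the edgeR interaction test, and the values are WT minus KO differences in log2 fold change with adjusted p. The change was higher in WT for Vwa1 (2.15, 0.00729), Gpr146 (2.05, 1.48e-07), Olfm1 (1.83, 1.00e-07), Sema6b (1.62, 0.00506) and Ptger2 (1.51, 1.06e-06). It was likewise higher for Adora3 (1.45, 4.13e-04), Irf7 (1.19, 0.00183), Ier3 (0.97, 0.0157), Batf3 (0.70, 0.0119) and Fcgrt (0.69, 0.00353). A higher WT value was found for Lgals9 (0.65, 0.0185), Il16 (0.64, 0.0474), Ccr2 (0.63, 0.0377), Zfp36l2 (0.59, 0.00215) and Runx1 (0.55, 0.00338). Further genes with a higher value were Trib1 (0.48, 0.0424), Spr (0.46, 0.0128), Bad (0.46, 0.0249), Idh2 (0.45, 0.0353) and Tnip2 (0.43, 5.74e-04). Smaller differences, higher in WT, were those of Fh1 (0.41, 0.04), Gpx1 (0.35, 0.0196), Rpl18 (0.34, 0.0162), Rpl23a (0.31, 0.0413) and Flt3 (0.31, 0.0284). The change was lower in WT for Nes (-1.12, 0.011), Slco4a1 (-1.09, 0.0128), Zfhx2 (-1.07, 3.32e-04), Nfatc2ip (-0.95, 0.00129) and Niban3 (-0.85, 0.0346). It was likewise lower for Syne2 (-0.81, 0.0414), Tnfsf8 (-0.46, 0.0413) and Hmgcs1 (-0.38, 0.0388). The calls for Niban3 and Syne2 were lost under many of the alternatives, and the number of genes called in this test changed with single libraries. The causes were not tested.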

How the results depend on the processing

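Leaving out each replicate in turn gave 10074 to 10263 genes called at any fold (4799 to 4890 higher, 5275 to 5373 lower) and 4168 to 4388 beyond 2-fold (1909 to 2016 higher, 2259 to 2372 lower). Total-count scaling gave 2379 genes higher and 8375 lower at any fold, and 1151 and 4606 beyond 2-fold. With that scaling as the setting, 128 of the 138 named genes called beyond 2-fold kept the call, with upper-quartile scaling 131, and in each other setting 134 to 138. The replicate block by title number gave 1830 genes higher and 2141 lower beyond 2-fold and kept 134; same-numbered WT libraries did not deviate together (Pearson 0.27, -0.15, 0.11 and -0.22), so these numbers do not pair them. WT libraries that share a run of library numbers did (0.27, 0.19, 0.14 and 0.25), although WT LPS replicate 2 and WT control replicate 4, of different runs, reached 0.29. That block gave 1921 and 2281. The 2 alternatives chosen after seeing the data were this block for the comparison of responses and leaving out both WT libraries with neutrophil transcripts. The 458 genes whose response differed from KO became 813 with DESeq2, 882 with the block, 206 without that pair and 208 to 1501 without single libraries; the cause was not tested. The difference in TPM share was 0.467 percentage points for 100 genes (0.11 to 0.71 without single libraries), 3.37 for 10 and 6.40 for 1000 genes, the last 2 with the smallest exact permutation p the design allows, 0.00794.

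Log2 fold changes that turned below 0 under total-count scaling were those of Clec9a (-0.25), Zbtb46 (-0.60), Eef1a1 (-0.58), Rpl23a (-0.33), Tnip2 (-0.10), Tgfb1 (-0.31), Psme3 (-0.36), Erap1 (-0.27), Ndufa9 (-0.42), Srebf2 (-0.21), Rpl18 (-0.61), Rps3 (-0.53), Rps19 (-0.14), Rplp2 (-0.10), Id2 (-0.18) and Slco4a1 (-0.70). Upper-quartile scaling did so for Zbtb46 (-0.13), Eef1a1 (-0.10), Rpl18 (-0.13), Rps3 (-0.057) and Slco4a1 (-0.24). Slco4a1 also turned with no filter (-0.015), limma-voom (-0.0090), the title block (-0.041), without the pair (-0.053), and without WT LPS 1 (-0.048), 3 (-0.0032) or 4 (-0.0019) or WT control 2 (-0.00074) or 4 (-0.027). Depth limits the genes with 0 to 3 control counts, whose folds are bounds or ratios with counting intervals.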
